A study of Homo sapiens with 23 samples.

Results

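The 51 genes described here encode proteins of the lysosome and of autophagy. They were taken by symbol from a list, and all 51 were found among the 28395 genes of the count table and among the 16468 genes that passed the filter on low counts. By role they form 9 classes: 6 membrane proteins, 8 proteases, 8 glycosidases and sulfatases, 6 lipid hydrolases and their partners, 3 subunits of the proton pump, 6 members or regulators of the TFEB family, 3 autophagy receptors, 3 ATG8 proteins and 8 genes of the autophagy core. RNA was sequenced from 4 human multiple myeloma lines, H929, MM1S, OPM2 and RPMI-8226, which are malignant plasma cells grown in culture. In each line, 1 group expressed an sgRNA against IRF4, a transcription factor of plasma cells, and the other a guide labelled EV, an abbreviation that the labels do not spell out. All 8 groups had 48 hours of doxycycline, which switched on the guides. Each group had 3 libraries, except MM1S with the EV guide, which had 2. Neither whether a line was a single clone nor whether replicates were separate cultures is stated in the labels, so p-values measure only how far these samples spread, and that spread may be technical.

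Lysosomes are acidic organelles in which hydrolases break down proteins, sugars and lipids. A proton pump, the V-ATPase, keeps them acid. Macroautophagy delivers cytoplasm to them: the ULK1 kinase complex starts it, ATG8 proteins are attached to the growing membrane, and receptors such as SQSTM1 tie cargo to ATG8 proteins. TFEB, TFE3 and MITF are related transcription factors that bind the letters CACGTG, often as TCACGTGA, in promoters of lysosomal genes, and mTORC1 holds them in the cytoplasm through the Rag GTPases and folliculin. Plasma cells, which make large amounts of secreted protein, are known to rely on autophagy.

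Library totals ran from 6907390 to 28486960 counts. IRF4, the targeted gene, stood at 2181 to 2219 CPM (counts scaled to library size, TMM-normalised) with the EV guide and 579 to 855 with its own guide in H929, 641 to 724 and 228 to 287 in MM1S, 1319 to 2031 and 890 to 1331 in OPM2, and 409 to 482 and 187 to 250 in RPMI-8226. It fell in every line, with log2 fold changes (IRF4 over EV guide, as in all that follows) of -1.58 ± 0.18 (standard error, SE), -1.37 ± 0.20, -0.66 ± 0.18 and -1.10 ± 0.18 in this order, and in OPM2 the groups overlapped. All 8 plasma cell markers were detected in every library. They summed to 12338 to 13686 CPM with the EV guide and 16441 to 16655 with the IRF4 guide in H929. The sums were 7012 to 7221 and 7314 to 7518 in MM1S, 10151 to 11003 and 9382 to 10148 in OPM2, and 3429 to 3745 and 4202 to 5442 in RPMI-8226. On average over the lines 7 of them were lower with the IRF4 guide and 1 higher. By line, 5 were lower and 1 higher in H929, 3 lower in MM1S, 7 lower in OPM2, and 3 lower and 2 higher in RPMI-8226. Of markers of other cells, the 8 myeloid genes summed to 0.130 to 0.358 CPM with the EV guide and 3.40 to 4.04 with the IRF4 guide in H929, 1.39 to 2.66 and 8.35 to 13.5 in MM1S, 0.117 to 0.146 and 0.665 to 1.01 in OPM2, and 4.48 to 5.91 and 12.3 to 18.7 in RPMI-8226. Among them MPO was at 0 in 21 libraries, FCGR3A in 22 and CD163 in 16. ITGAM was at 0 in only 4 and reached 14.5 CPM, and AIF1, CSF1R and CD14 reached 3.17, 3.04 and 2.01. Of the 4 that could be tested, 1 was called higher on average. Within single lines, 2 were higher for OPM2 and also for H929, 1 for RPMI-8226 and 1 for MM1S, with 0 lower. The 8 T and NK cell genes summed to 13.6 to 15.5 CPM with the EV guide and 120.3 to 137 with the IRF4 guide in H929, most of it CD3E (up to 117 CPM). They summed to 5.77 to 6.73 and 11.6 to 14.6 in MM1S, and to 0 to 0.437 and 3.19 to 4.52 in OPM2. Their sums for RPMI-8226 were 0 to 0.459 and 0.915 to 1.16. Of these genes 7 were tested, and 2 were called higher on average. H929 alone had 6 called higher, OPM2 had 4, RPMI-8226 had 2 and MM1S had 1, with 0 lower. The 8 genes of a stromal list, which also holds the epithelial genes EPCAM, KRT8 and KRT18, summed to at most 4.80 CPM in H929, MM1S and OPM2. In RPMI-8226 they summed to 226 to 237 CPM with the EV guide and 190.3 to 205 with the IRF4 guide. EPCAM and KRT18 reached 121 CPM each, and the collagens, PDGFRB and DCN at most 4.12. The 8 genes of an erythroid list summed to 3.54 to 5.13 and 1.25 to 1.55 CPM in RPMI-8226, where 2 of 3 tested were lower. In the other lines they summed to at most 3.31 CPM. The part of these markers in the results was not tested, and in bulk RNA fewer cells of a type cannot be told apart from less RNA per cell.

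The IRF4 guide was compared with the EV guide to ask how transcripts of the lysosome and of autophagy moved when IRF4 was targeted. Averaged over the lines with equal weights, 39 of the 51 genes were higher with the IRF4 guide and 4 were lower (edgeR quasi-likelihood test, adjusted p under 0.05 over all genes tested), while of all genes tested 32.6% were higher and 25.1% lower. The median change of the 51 was 0.47 on the log2 scale, against 0.11 over all genes tested. These genes, and the further lists below, were chosen with earlier results of these data known. Their excess over all genes is therefore no independent finding. In H929, 38 were higher and 2 lower (median 0.63), where 32.9% and 26.1% of all genes tested were (median 0.10). In MM1S the counts were 33 higher and 4 lower (median 0.43), beside 19.4% and 15.2% of all genes (median 0.07). OPM2 had 34 higher and 4 lower (median 0.38), beside 23.3% and 20.2% (median 0.03). RPMI-8226 had 29 higher and 4 lower (median 0.33), beside 19.2% and 14.7% (median 0.04). The 4 lower calls became 2 in OPM2 without EV replicate 2, EV replicate 3 or IRF4 guide replicate 1, and 2 in RPMI-8226 without EV replicate 1.

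Called higher in all 4 lines were 21 of the 51 (17 to 22 when any 1 library was left out, and 24 with either replicate block), against 5.14% of all genes tested. They were CTSD, CTSS, CTSZ and TPP1 of the proteases, GAA, HEXA, NEU1 and ARSA of the sugar and sulfate hydrolases, ASAH1, SMPD1, PSAP, GRN and NPC2 of the lipid class, ATP6V0D1, TFE3, SQSTM1, NBR1, GABARAPL1, MAP1LC3B, ULK1 and TECPR1. The libraries of the 2 guides did not overlap, with the IRF4 guide above, for 37 of the 51 genes in H929 (34.4% of all genes), 37 in MM1S (31.4%) and 36 in OPM2 (28.0%). RPMI-8226 had 31 such genes (24.8%). For 5 genes no line gave a call: the lysosomal calcium channel MCOLN1, the protease CTSL, the arylsulfatase ARSB, the folliculin partner FNIP1 and the E1-like enzyme ATG7. CTSB, GUSB, LIPA and MITF were called higher in some lines and lower in another. The heat map of changes shows these patterns gene by gene.

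**Figure D1:**
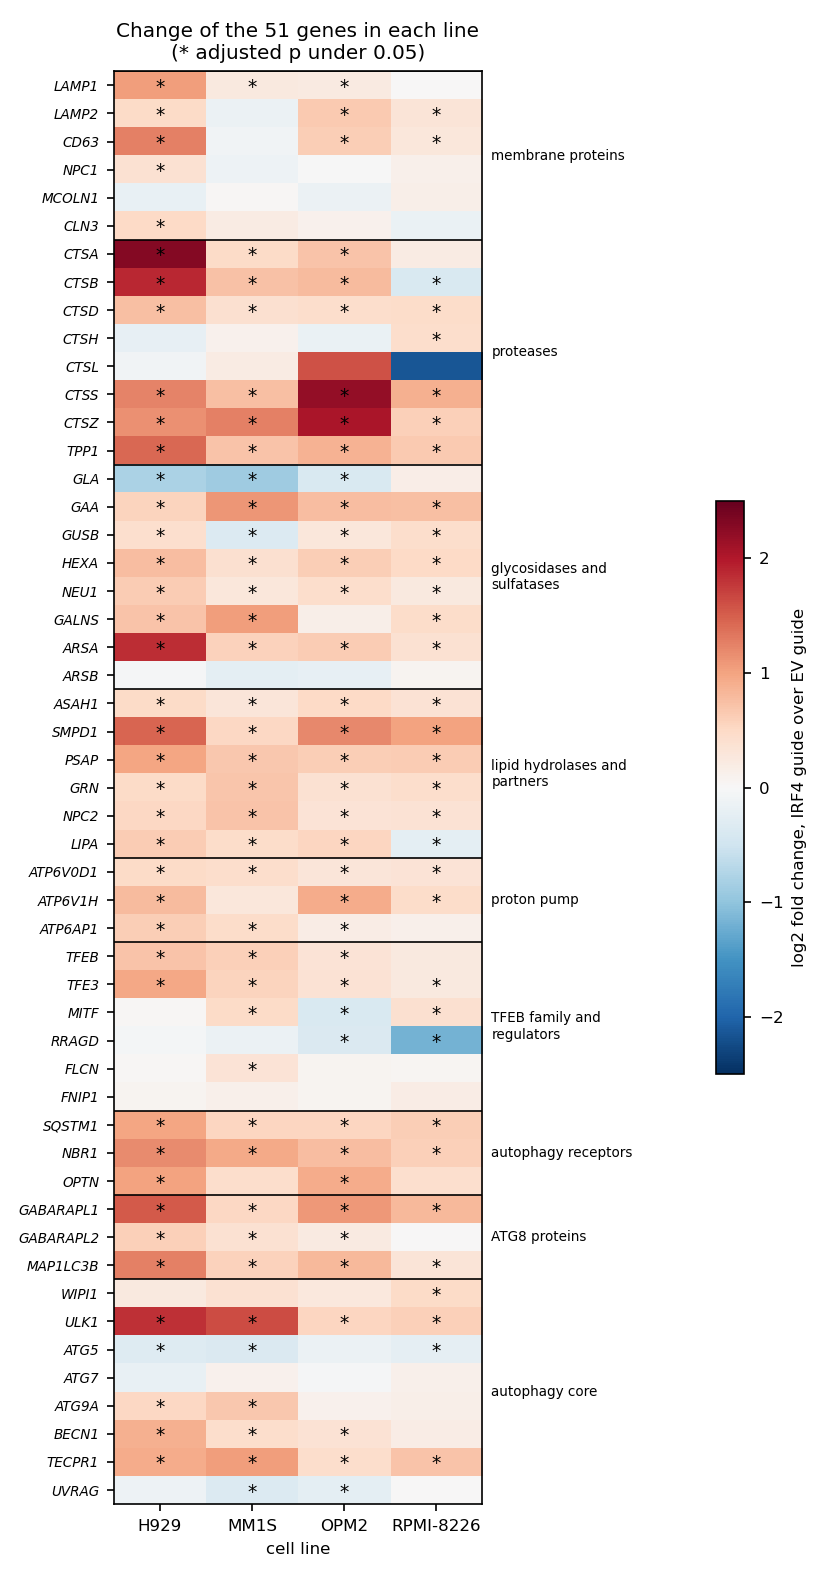
Heat map of the log2 fold change, IRF4 guide over EV guide, of the 51 genes (rows, by class) in the 4 lines (columns); red is higher and blue lower with the IRF4 guide, and a star marks an adjusted p under 0.05. Most cells of the proteases, lipid class, receptors and ATG8 proteins are red, while GLA, RRAGD, ATG5 and UVRAG hold blue cells; the deep colours of CTSL in OPM2 and RPMI-8226 rest on very few counts and carry no star.

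Promoters were examined because so many of the genes moved the same way. RefSeq promoters of GRCh38.p14, 250 bases before to 50 after the table's start site, were at hand for 41 of the 51. CACGTG was present in 11 of the 41 (26.8%), against 7.43% of the 27305 promoters in the table and 9.68% of the 12560 promoters of genes tested. The longer TCACGTGA, which contains CACGTG, was present in 7 (17.1%), against 1.04% and 1.73%. Both motifs read the same on either strand. The CACGTG consensus was itself described from promoters of lysosomal genes, so its share here is no independent finding. Letters of IRF4 sites, searched on both strands, were in none of the 41: GAAA followed after 2 bases of any kind by a second GAAA is in 3.65% of all promoters and 3.03% of those tested, and GGAA so followed by GAAA in 2.84% and 2.60%. With motifs this rare, their absence from 41 promoters shows little, and sites elsewhere were not searched. For ATG5, on the minus strand, the promoter used (106316217 to 106316516) lies inside the gene (106184476 to 106325760). The 7 promoters with TCACGTGA are shown here from 200 bases before to 10 after the start site, 5′ to 3′ on the gene's strand, with each CACGTG in capitals, so that the number and spacing of the motif can be compared.
LAMP1 (chr13:113297039-113297248, plus strand): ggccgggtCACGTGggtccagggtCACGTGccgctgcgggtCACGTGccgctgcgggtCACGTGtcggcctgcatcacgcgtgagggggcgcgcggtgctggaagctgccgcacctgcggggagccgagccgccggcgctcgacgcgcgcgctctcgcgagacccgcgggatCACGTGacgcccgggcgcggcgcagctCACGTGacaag
MCOLN1 (chr19:7522424-7522633, plus strand): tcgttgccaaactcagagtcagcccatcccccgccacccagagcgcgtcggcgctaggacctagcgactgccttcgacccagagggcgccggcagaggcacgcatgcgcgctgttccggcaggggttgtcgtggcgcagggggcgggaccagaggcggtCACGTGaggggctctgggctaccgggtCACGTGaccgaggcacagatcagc
CLN3 (chr16:28492065-28492274, minus strand): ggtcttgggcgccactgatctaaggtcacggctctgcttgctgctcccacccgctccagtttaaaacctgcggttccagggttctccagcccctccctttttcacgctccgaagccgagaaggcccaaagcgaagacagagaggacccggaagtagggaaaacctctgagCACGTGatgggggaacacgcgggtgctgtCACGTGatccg
CTSA (chr20:45891135-45891344, plus strand): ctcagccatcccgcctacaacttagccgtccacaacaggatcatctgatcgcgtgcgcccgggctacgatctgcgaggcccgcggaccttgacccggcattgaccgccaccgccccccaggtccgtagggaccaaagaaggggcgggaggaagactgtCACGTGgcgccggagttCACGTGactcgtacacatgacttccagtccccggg
GAA (chr17:80101381-80101590, plus strand): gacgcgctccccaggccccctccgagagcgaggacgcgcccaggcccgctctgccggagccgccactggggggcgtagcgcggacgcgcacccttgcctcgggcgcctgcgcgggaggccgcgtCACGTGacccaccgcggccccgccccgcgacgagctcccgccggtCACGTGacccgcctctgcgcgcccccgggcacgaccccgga
GALNS (chr16:88856938-88857147, minus strand): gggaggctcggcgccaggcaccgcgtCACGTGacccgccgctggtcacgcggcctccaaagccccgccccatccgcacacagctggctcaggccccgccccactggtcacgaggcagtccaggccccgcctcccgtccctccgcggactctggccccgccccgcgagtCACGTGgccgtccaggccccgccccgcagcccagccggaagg
ATP6V0D1 (chr16:67481148-67481357, minus strand): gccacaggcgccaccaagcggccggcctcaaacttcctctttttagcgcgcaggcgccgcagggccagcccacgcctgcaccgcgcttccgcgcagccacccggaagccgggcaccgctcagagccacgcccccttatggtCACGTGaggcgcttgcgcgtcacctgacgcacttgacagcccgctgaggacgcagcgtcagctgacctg
The LAMP1 window holds 6 copies and that of ATP6V0D1 holds 1, and the other windows hold 2 each. The remaining promoters with CACGTG but not TCACGTGA were those of CD63, CTSD, FNIP1 and NEU1. Of the genes with CACGTG, 9 of 11 were higher on average (median 0.40), and of those without it 22 of 30 (median 0.41). Of those with TCACGTGA, 6 of 7 were higher (median 0.39), and of those without it 25 of 34 (median 0.43). MCOLN1 has 2 copies and was not called in any line.

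Among the membrane proteins, 4 of 6 were higher on average (median 0.25). Beside this and each class that follows stand the shares of all genes tested, 32.6% higher and 25.1% lower on average (median 0.11). LAMP1 (Entrez 3916, chromosome 13, 113297239 to 113323672 on GRCh38), an abundant glycoprotein of the lysosomal membrane, was at 90.0, 86.8 and 91.0 CPM in the EV libraries of H929 and at 186, 182 and 184 with the IRF4 guide. In RPMI-8226 it was at 188, 181 and 176 CPM with the EV guide and 182, 186 and 182 with the IRF4 guide. The groups were far apart in H929 and interleaved in RPMI-8226. Its change was 1.04 ± 0.06 in H929 (adjusted p = 1.11e-14), and MM1S, OPM2 and RPMI-8226 gave 0.24 ± 0.07, 0.23 ± 0.06 and 0.01 ± 0.06. The change differed between lines (edgeR F test with 3 degrees of freedom, adjusted p = 3.60e-10). CD63 (Entrez 967), a tetraspanin of late endosomes and lysosomes, stood at 133, 103 and 138 CPM against 338, 263 and 289 in H929, and at 113 and 128 against 119.5, 109 and 114 in MM1S. It rose by 1.25 ± 0.10 in H929 and by 0.62 ± 0.09 in OPM2, and was -0.08 ± 0.11 in MM1S without a call. LAMP2, the partner of LAMP1 that also serves chaperone-mediated autophagy, rose in H929, OPM2 and RPMI-8226 by 0.48 ± 0.07, 0.65 ± 0.07 and 0.32 ± 0.07. CLN3, mutated in juvenile Batten disease, was called in H929 alone among the lines (0.50 ± 0.08), and its change differed between lines (adjusted p = 1.95e-04). Its IRF4 guide libraries also lay above the EV libraries in MM1S (0.21 ± 0.09, adjusted p = 0.0806) and OPM2 (0.10 ± 0.08), without calls, and RPMI-8226 gave -0.16 ± 0.08. The cholesterol exporter NPC1 was 0.38 ± 0.12 in H929, a call that ended without EV replicate 1 (adjusted p = 0.111) or IRF4 guide replicate 3 (0.116). LAMP1 in MM1S lost its call without EV replicate 2 (0.129) and with no filter on low counts (0.0821), and CD63 in RPMI-8226 (0.29 ± 0.09) without EV replicate 2 (0.0730), EV replicate 3 (0.0565), or IRF4 guide replicates 1 (0.111) or 3 (0.0508).

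The proteases gave the widest changes, with 6 of 8 higher on average (median 0.84). CTSA (Entrez 5476, chromosome 20, 45891335 to 45898820), the carboxypeptidase that also shields NEU1 and beta-galactosidase, was at 128, 138 and 140 CPM in H929 with the EV guide and at 658, 679 and 660 with the IRF4 guide. In MM1S it was at 98.3 and 93.8 against 135, 140 and 125 CPM, in OPM2 at 63.8, 45.1 and 60.3 against 98.5, 89.0 and 94.9, and in RPMI-8226 at 99.6, 92.1 and 99.2 against 116, 111 and 108. The groups did not overlap in any line, but only in H929 did they lie several-fold apart. The change was 2.30 ± 0.09 in H929. MM1S and OPM2 gave 0.48 ± 0.10 and 0.72 ± 0.09, and RPMI-8226 0.21 ± 0.08 (adjusted p = 0.0576, not called).

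CTSB (Entrez 1508), a cysteine protease of broad specificity, went in opposite directions. It stood at 529, 430 and 660 CPM with the EV guide and 1906, 1739 and 2324 with the IRF4 guide in H929, and at 711, 601 and 655 against 515, 492 and 500 in RPMI-8226. In both lines the groups were apart, with the IRF4 guide above in the first and below in the second. It rose by 1.88 ± 0.11 in H929, 0.73 ± 0.12 in MM1S and 0.79 ± 0.11 in OPM2. In RPMI-8226 it fell by 0.38 ± 0.11 (adjusted p = 0.00634), and the difference between lines had an adjusted p of 8.32e-11. On the deposited log2 RPKM, tested with limma, the fall in RPMI-8226 missed the threshold (adjusted p = 0.0565).

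CTSS (Entrez 1520, chromosome 1, 150730188 to 150765778), a cysteine protease of antigen-presenting cells that trims the invariant chain, rose in each line. Its EV libraries held 72.9, 74.6 and 81.4 CPM in H929, 118 and 122 in MM1S, 0.594, 0.474 and 0.440 in OPM2, and 110, 112 and 104 in RPMI-8226. With the IRF4 guide they held 164, 185 and 191, then 188, 205 and 210, then 2.40, 2.85 and 1.95, then 200, 173 and 233 CPM. No line's groups overlapped, although OPM2 stayed far below the other lines with either guide. The average change was 1.27 ± 0.07 (adjusted p = 2.30e-15), from 0.75 ± 0.10 in MM1S to 2.20 ± 0.24 in OPM2. TPP1, a tripeptidyl peptidase, stood at 67.4, 76.0 and 90.2 against 182, 213 and 238 CPM in H929, and at 115, 112 and 127 against 181, 161 and 218 in RPMI-8226, and its average change was 0.92 ± 0.06. CTSD, the main aspartic protease of lysosomes, rose by 0.41 ± 0.08 to 0.76 ± 0.07 in the 4 lines.

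CTSZ (Entrez 1522, chromosome 20, 58995185 to 59007254), a cysteine carboxypeptidase, was the member with the widest spread of EV levels. It stood at 1.16, 1.13 and 1.63 CPM in H929, 18.7 and 21.6 in MM1S, 0.0743, 0 and 0.0881 in OPM2, and 108, 95.6 and 112 in RPMI-8226 with the EV guide. With the IRF4 guide it stood at 3.12, 2.05 and 3.24, then 44.7, 49.0 and 52.0, then 0.467, 0.280 and 0.125, then 159, 156 and 159 CPM. Every line's IRF4 guide libraries lay above its EV libraries. The change was 1.26 ± 0.13 in MM1S and 0.59 ± 0.10 in RPMI-8226. Its call in OPM2 ended without IRF4 guide replicate 1 (adjusted p = 0.140), and limma on log2 RPKM called it neither in H929 (0.258) nor in RPMI-8226 (0.263). CTSL was close to absent outside H929: with the EV guide it had 0.510 and 0.112 CPM in MM1S, 0 in each OPM2 library, and 0.288, 0.0782 and 0 in RPMI-8226, against 19.7, 14.8 and 18.6 in H929. In OPM2 it had 1 count in all over the IRF4 guide libraries, so no fold is given. CTSH, an aminopeptidase, was called in RPMI-8226 alone (0.43 ± 0.17, adjusted p = 0.0492), and that call was lost in 23 of the 30 alternative settings, with adjusted p from 0.0501 to 0.186.

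**Figure D2:**
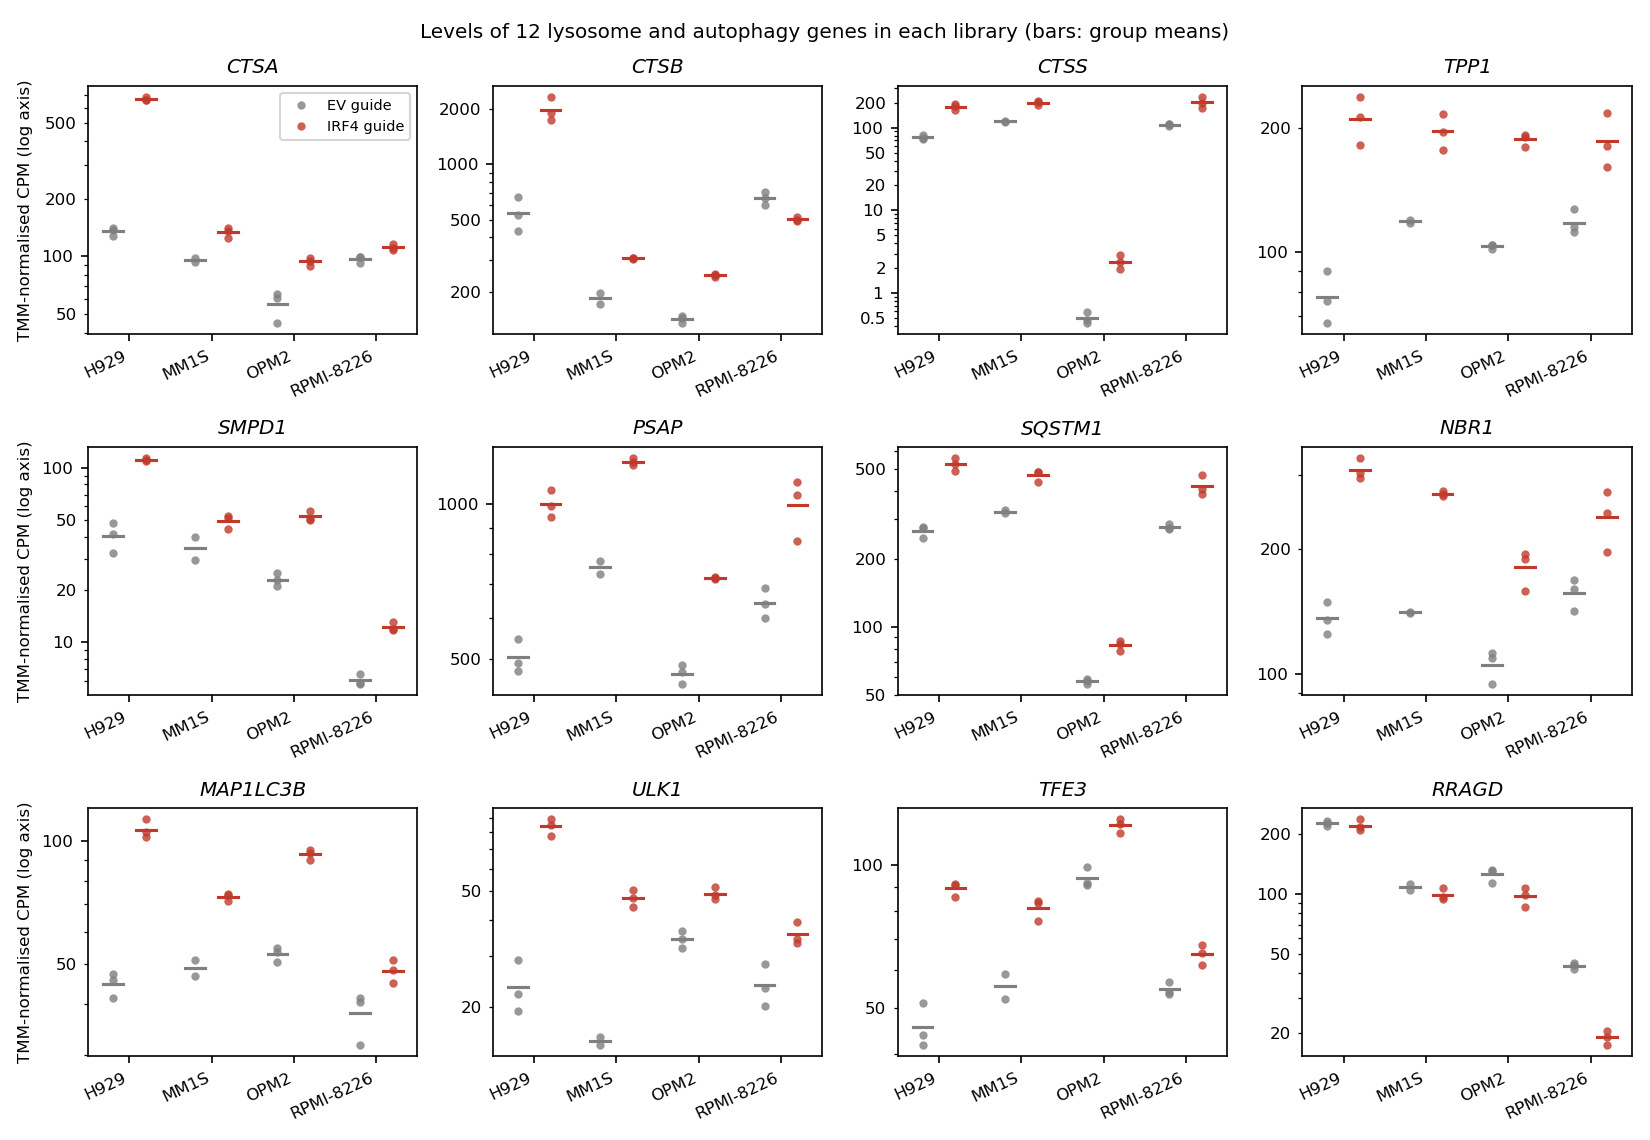
TMM-normalised CPM (log axis) of 12 genes in each library, grey for the EV guide and red for the IRF4 guide, with bars at the group means. Wide gaps are those of CTSA and CTSB in H929 (CTSA 128 to 140 against 658 to 679 CPM) and of CTSS in OPM2 (0.440 to 0.594 against 1.95 to 2.85 CPM), CTSB is lower with the IRF4 guide in RPMI-8226, and RRAGD is lower there and overlaps in H929.

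Per length, the 8 protease transcripts can be compared with each other through the deposited RPKM (reads scaled to transcript length and library size, back from log2). Their summed level was 328 ± 33.9 RPKM (SD, n = 3) with the EV guide and 917 ± 32.9 (n = 3) with the IRF4 guide in H929. It was 266 ± 11.6 (n = 2) and 412 ± 16.1 (n = 3) in MM1S, 168 ± 5.56 and 278 ± 6.89 (n = 3 each) in OPM2, and 403 ± 26.5 and 505 ± 16.8 (n = 3 each) in RPMI-8226. The ranges of the guides did not overlap in any line. In H929 the share of CTSA was 17.6 ± 1.42% with the EV guide and 29.7 ± 1.78% with the IRF4 guide, and that of CTSD 34.7 ± 1.82% and 20.8 ± 1.37%. In RPMI-8226 the share of CTSB was 34.5 ± 1.04% and 22.7 ± 0.556%, and that of CTSZ 17 ± 0.710% and 20.9 ± 0.373%. The ranges of these 4 shares did not overlap between the guides. In OPM2 CTSD was the largest share with either guide (48.8 ± 1.48% and 43.2 ± 1.85%).

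**Figure D3:**
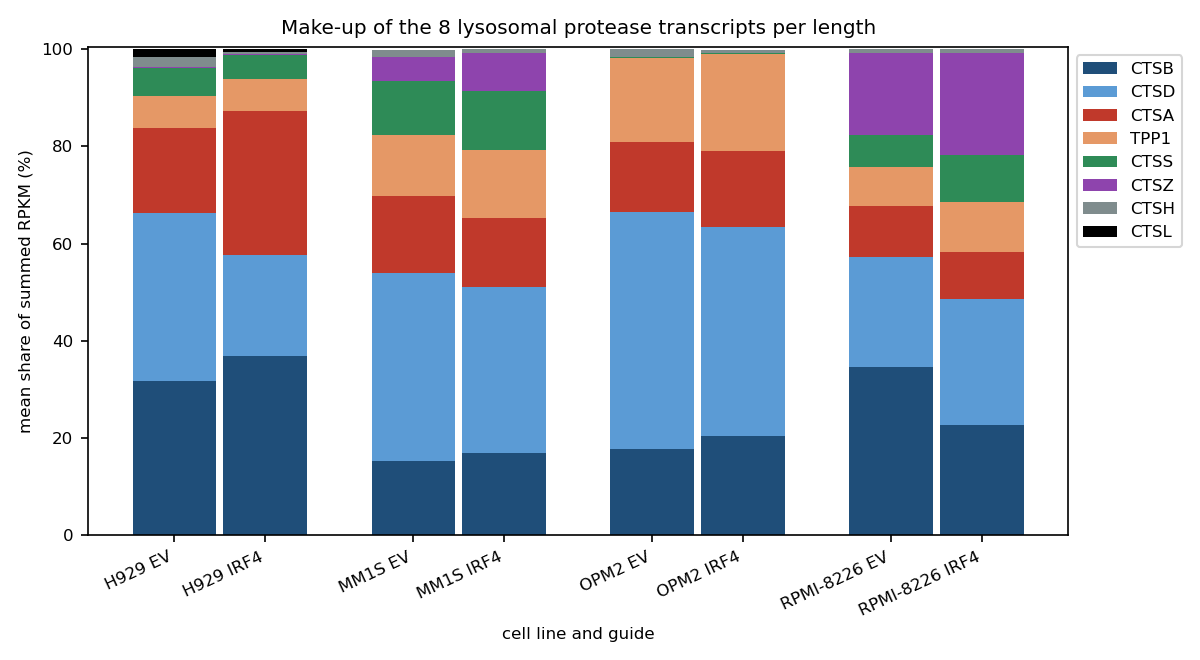
Mean share (%) of each protease in the summed RPKM of the 8 proteases, for the 8 groups (line and guide). CTSA (red) widens from 17.6% to 29.7% in H929, CTSB (dark blue) narrows from 34.5% to 22.7% in RPMI-8226, and CTSZ (purple) is a visible band only in MM1S and RPMI-8226.

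Of the glycosidases and sulfatases, which take sugars and sulfate groups off glycolipids, glycogen and glycosaminoglycans, 6 of 8 were higher on average and 1 was lower (median 0.49). GLA (Entrez 2717, X chromosome, 101397803 to 101407925), the alpha-galactosidase deficient in Fabry disease, was the one that fell. It stood at 33.2, 24.3 and 28.2 CPM with the EV guide and 18.7, 13.3 and 17 with the IRF4 guide in H929, at 28.2 and 31.1 against 17.9, 14 and 15.4 in MM1S, and at 36.4, 37.4 and 37.3 against 27.3, 29.5 and 28.6 in OPM2. In RPMI-8226 it stood at 59.0, 57.7 and 60.0 against 61.6, 70.4 and 66.8 CPM. The groups were apart with the IRF4 guide below in the first 3 lines and above in RPMI-8226. It fell by 0.79 ± 0.11, 0.89 ± 0.13 and 0.38 ± 0.11 in the first 3 lines, was 0.17 ± 0.10 in RPMI-8226 without a call, and differed between lines (adjusted p = 5.20e-06).

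GAA (Entrez 2548, chromosome 17, 80101581 to 80119881), the acid alpha-glucosidase that degrades glycogen, rose in every line although its level differed widely. It stood at 99.2, 121 and 126 against 162, 186 and 162 CPM in H929, at 3.67 and 2.23 against 7.16, 5.77 and 5.68 in MM1S, at 15.3, 20.5 and 15.8 against 27.6, 32.5 and 26.4 in OPM2, and at 13.5, 15.5 and 13.1 against 25.5, 25.3 and 20.8 in RPMI-8226. No line's groups overlapped. Its average change was 0.80 ± 0.08 (adjusted p = 3.97e-10), and a difference between lines was not called (adjusted p = 0.294). ARSA, the sulfatase of sulfatides, rose by 1.84 ± 0.13 in H929 and by 0.38 ± 0.12 in RPMI-8226, where the call ended without EV replicate 2 (adjusted p = 0.101), without IRF4 guide replicate 3 (0.0803) and by limma on log2 RPKM (0.0643; 0.189 in OPM2). HEXA, a subunit of beta-hexosaminidase, rose by 0.40 ± 0.09 to 0.77 ± 0.08. GUSB, the beta-glucuronidase, rose in H929, OPM2 and RPMI-8226 (0.42 ± 0.08, 0.28 ± 0.08 and 0.44 ± 0.08) and fell by 0.34 ± 0.08 in MM1S, where it stood at 241 and 245 CPM against 203, 196 and 177. GUSB has pseudogenes that could share its reads. The sialidase NEU1 rose by 0.63 ± 0.09 in H929 and 0.44 ± 0.09 in OPM2. Its calls in MM1S and RPMI-8226 were lost in 10 and 7 settings, with adjusted p up to 0.205 and 0.244. GALNS, a sulfatase of keratan sulfate, was 0.71 ± 0.12 in H929 and 1.05 ± 0.25 in MM1S, the second lost without EV replicate 3 (adjusted p = 0.0715).

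All 6 genes of the lipid class were higher on average (median 0.49), and in each line 5 or 6 were. SMPD1 (Entrez 6609, chromosome 11, 6390474 to 6394996), the acid sphingomyelinase, stood at 32.4, 41.5 and 47.9 CPM against 113, 110 and 109 in H929, at 20.9, 22.7 and 24.9 against 56.3, 51 and 50.4 in OPM2, and at 6.58, 5.83 and 5.81 against 13.1, 12 and 11.8 in RPMI-8226. In all of these the groups were apart, by more than the spread within either guide. The changes were 1.45 ± 0.11, 1.20 ± 0.12 and 1.01 ± 0.14, and 0.51 ± 0.14 in MM1S, where the call ended without EV replicate 2 (adjusted p = 0.190).

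PSAP (Entrez 5660, chromosome 10, 71816298 to 71851251), whose product is cut into the saposins that help hydrolases reach their lipids, was the most abundant gene of the class. It stood at 491, 475 and 548 against 945, 993 and 1067 CPM in H929, at 733 and 775 against 1195, 1230 and 1211 in MM1S, at 471, 448 and 487 against 722, 718 and 716 in OPM2, and at 689, 602 and 639 against 1041, 849 and 1105 in RPMI-8226. Each line's groups were apart, and the average change was 0.73 ± 0.04 (adjusted p = 2.62e-15). GRN (Entrez 2896, chromosome 17, 44345302 to 44353106), the precursor of lysosomal granulins, rose by 0.48 ± 0.09 in H929, 0.70 ± 0.11 in MM1S and 0.44 ± 0.09 in RPMI-8226. In OPM2 it stood at 8.88, 9.13 and 6.87 against 10.9, 11.9 and 9.01 CPM, ranges that overlapped, and the call there (0.38 ± 0.12) ended without EV replicate 3 (adjusted p = 0.158), without IRF4 guide replicate 2 (0.0801), with OPM2 fitted alone (0.0597) and on log2 RPKM (0.470). The ceramidase ASAH1 and the cholesterol carrier NPC2 averaged 0.41 ± 0.04 and 0.49 ± 0.06. LIPA, the acid lipase of cholesteryl esters, rose by 0.64 ± 0.07, 0.46 ± 0.08 and 0.54 ± 0.07 in H929, MM1S and OPM2. In RPMI-8226 it fell by 0.24 ± 0.07, from 112, 108 and 99.3 to 90.7, 83.4 and 97.2 CPM, a call that ended without EV replicate 1 (adjusted p = 0.0712) or IRF4 guide replicate 2 (0.0671).

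The 3 listed subunits of the proton pump were higher on average (median 0.39). ATP6V0D1, of the membrane sector, rose by 0.30 ± 0.07 to 0.47 ± 0.07 in the 4 lines. ATP6V1H, of the cytosolic sector, rose by 0.80 ± 0.10 in H929, 0.92 ± 0.10 in OPM2 and 0.46 ± 0.10 in RPMI-8226, and was 0.29 ± 0.11 in MM1S (adjusted p = 0.0534). ATP6AP1, an accessory subunit, rose by 0.62 ± 0.06 in H929 and 0.46 ± 0.08 in MM1S. Its change in OPM2 (0.19 ± 0.06) lost the call without EV replicate 1 (adjusted p = 0.0651), EV replicate 2 (0.0521) or IRF4 guide replicate 3 (0.0601).

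**Figure D4:**
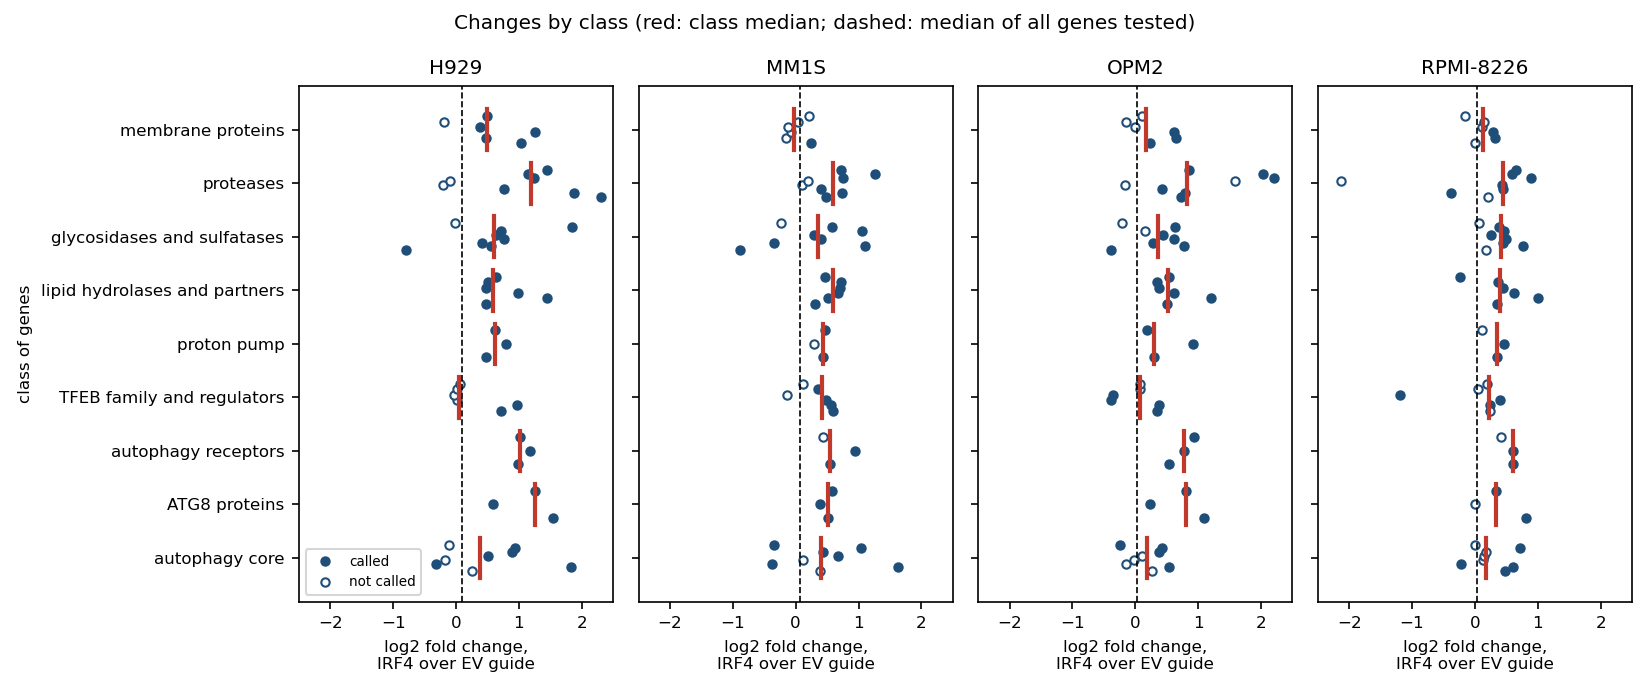
Log2 fold change (IRF4 guide over EV guide) of each gene by class and line; filled points were called, open points were not, red bars are class medians and the dashed line is the median of all genes tested. The medians of the membrane proteins in MM1S (-0.03) and of the TFEB family and regulators in H929 (0.04) lie to the left of the dashed line. All other class medians lie to the right of it in all 4 lines.

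In the class of the TFEB family and its regulators, 3 of 6 were higher on average and 1 lower. The class median of 0.12 was close to that of all genes tested (0.11), of which 32.6% were higher and 25.1% lower. TFE3 (Entrez 7030, X chromosome, 49028726 to 49043357) stood at 41.8, 43.8 and 51.1 CPM against 91.2, 85.7 and 91.0 in H929, at 52.1 and 58.8 against 83.4, 84.0 and 76.3 in MM1S, at 91.0, 91.8 and 98.9 against 122, 125 and 117 in OPM2, and at 56.7, 53.4 and 54.1 against 67.8, 61.7 and 65.2 in RPMI-8226. Each line kept its groups apart, with the widest gap in H929. It changed by 0.97 ± 0.08, 0.56 ± 0.09, 0.37 ± 0.08 and 0.24 ± 0.08, and the last call ended without EV replicate 2 (adjusted p = 0.0695), without IRF4 guide replicates 1 (0.0730) or 3 (0.0670), and with no filter on low counts (0.0714). TFEB (Entrez 7942, chromosome 6, 41683978 to 41736223) stood at 13.5, 14.1 and 15 against 26.4, 22.1 and 21.0 CPM in H929, and at 7.49, 6.85 and 6.80 against 7.89, 9.01 and 8.23 in RPMI-8226. It rose by 0.71 ± 0.12 in H929 and 0.60 ± 0.14 in MM1S and was 0.24 ± 0.14 in RPMI-8226 without a call. Its change in OPM2 (0.35 ± 0.13) lost the call without EV replicate 1 (adjusted p = 0.278), without IRF4 guide replicates 1 (0.0548) or 3 (0.0506), and by limma on log2 RPKM (0.318).

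MITF (Entrez 4286, chromosome 3, 69739464 to 69968332) had no shared direction. It stood at 12.3, 8.13 and 11.9 against 11.1, 11.5 and 11.2 CPM in H929, at 15.5 and 16.8 against 21.7, 24.8 and 21.3 in MM1S, at 7.02, 9.61 and 9.56 against 5.84, 6.22 and 7.56 in OPM2, and at 28.3, 26.6 and 26.8 against 35.1, 36.4 and 36.3 in RPMI-8226. In MM1S and RPMI-8226 the groups were apart, and they overlapped in H929 and OPM2. The change was 0.40 ± 0.12 in RPMI-8226 (adjusted p = 0.0104; 0.0609 by limma on log2 RPKM) and 0.48 ± 0.15 in MM1S, lost without EV replicate 2 (0.142) or IRF4 guide replicate 2 (0.0588). In OPM2 it was -0.39 ± 0.14, a call lost without EV replicates 2 (0.0959) or 3 (0.164) or IRF4 guide replicates 1 (0.126) or 2 (0.0703), with no filter on low counts (0.0516) and with OPM2 fitted alone (0.0610). Per length, TFE3 made up the largest share of the 3 factors in every group, from 64.6 ± 2.90% (SD, n = 2) in MM1S with the EV guide to 87.9 ± 0.571% (n = 3) in OPM2 with the IRF4 guide.

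RRAGD (Entrez 58528, chromosome 6, 89364616 to 89412273), a Rag GTPase through which TFEB and TFE3 are held by mTORC1 and which is itself known as their target, fell. It stood at 44.2, 41.8 and 45.2 CPM against 20.6, 19.2 and 17.5 in RPMI-8226, at 114, 133 and 130 against 86.6, 99.0 and 107 in OPM2, at 105 and 113 against 96.4, 95.0 and 107 in MM1S, and at 221, 228 and 233 against 209, 217 and 238 in H929. The groups were apart in RPMI-8226 and OPM2 and overlapped in the other two. It fell by 1.19 ± 0.09 in RPMI-8226 (adjusted p = 2.43e-11) and by 0.36 ± 0.08 in OPM2, was -0.04 ± 0.08 in H929, and differed between lines (adjusted p = 1.87e-08). FLCN, the folliculin subunit that acts on the Rag GTPases, averaged 0.12 ± 0.05 (adjusted p = 0.0326), a call lost in 14 settings with adjusted p from 0.0503 to 0.0906.

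All 3 autophagy receptors were higher on average (median 0.70). SQSTM1 (Entrez 8878, chromosome 5, 179806393 to 179838078), also called p62, stood at 274, 247 and 276 CPM against 556, 489 and 526 in H929, at 318 and 327 against 484, 484 and 438 in MM1S, at 57.6, 58.7 and 56.0 against 86.6, 84.1 and 78.0 in OPM2, and at 273, 269.7 and 284 against 385, 471 and 406 in RPMI-8226. No groups overlapped, and OPM2 was the low line with either guide. The change ran from 0.53 ± 0.08 in OPM2 to 0.98 ± 0.08 in H929, and differed between lines (adjusted p = 0.00212). NBR1 (Entrez 4077, chromosome 17, 43170409 to 43211688), a receptor that works beside SQSTM1, stood at 135, 125 and 149 against 303, 295 and 330 CPM in H929, at 141 and 140 against 270, 267 and 275 in MM1S, at 109, 94.8 and 112 against 189, 158 and 194 in OPM2, and at 160, 142 and 168 against 243, 196 and 274 in RPMI-8226. Again no groups overlapped, and its average change was 0.87 ± 0.05 (adjusted p = 7.19e-15). OPTN, a receptor of mitochondria and bacteria, rose by 1.01 ± 0.18 in H929 and 0.93 ± 0.18 in OPM2, and was 0.43 ± 0.19 and 0.42 ± 0.18 in MM1S and RPMI-8226 without calls.

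The 3 ATG8 proteins were higher on average (median 0.74), and the change of each differed between lines. MAP1LC3B (Entrez 81631, chromosome 16, 87392336 to 87404774), or LC3B, stood at 45.8, 41.3 and 47.2 CPM against 113, 105 and 102 in H929, at 46.7 and 51.1 against 73.6, 71.2 and 74.4 in MM1S, at 50.5, 53.4 and 54.7 against 95.0, 93.7 and 89.9 in OPM2, and at 41.4, 40.5 and 31.8 against 48.3, 45.0 and 51.1 in RPMI-8226. In each line the groups were apart, narrowly in RPMI-8226. It rose by 1.25 ± 0.09 in H929 and by 0.33 ± 0.09 in RPMI-8226 (difference between lines, adjusted p = 3.02e-06). GABARAPL1 rose by 1.54 ± 0.15 in H929 and 1.09 ± 0.15 in OPM2. Its call in MM1S was lost in 14 settings, with adjusted p up to 0.297, and that in RPMI-8226, at 0.832 ± 0.304 against 1.44 ± 0.385 CPM (SD, n = 3 each), without EV replicate 2 (0.294) or IRF4 guide replicate 1 (0.167), with the line fitted alone (0.102) and by limma on log2 RPKM (0.0709). GABARAPL2 rose by 0.59 ± 0.09 in H929. Its call in OPM2 (0.23 ± 0.09) ended without any of 5 libraries, with adjusted p up to 0.124, and that in MM1S without EV replicate 2 (0.240). MAP1LC3B and GABARAPL1 have near-identical copies (MAP1LC3B2 and GABARAPL3) that could share reads. Per length, GABARAPL2 was the largest share of the 3 in every group, and in H929 it was 72.3 ± 1.95% with the EV guide and 61.5 ± 1.87% with the IRF4 guide (SD, n = 3 each).

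Of the autophagy core, 5 of 8 were higher on average and 2 were lower (median 0.35), beside 32.6% and 25.1% of all genes tested. The share of lower calls is thus near that of all genes. ULK1 (Entrez 8408, chromosome 12, 131894622 to 131923150), the kinase that starts autophagy, stood at 19.4, 22.1 and 28.9 CPM against 77.9, 85.0 and 88.8 in H929, at 15.7 and 14.8 against 44.1, 50.8 and 47.5 in MM1S, at 31.8, 36.5 and 34.2 against 48.5, 47.2 and 51.8 in OPM2, and at 23.2, 20.1 and 28.1 against 34.2, 33.1 and 39.3 in RPMI-8226. The groups were apart in each line. H929 was the highest line with the IRF4 guide, and OPM2 with the EV guide. The change was 1.83 ± 0.12, 1.63 ± 0.15, 0.53 ± 0.12 and 0.60 ± 0.12, and differed between lines (adjusted p = 8.04e-08). TECPR1, which tethers autophagosomes to lysosomes, averaged 0.78 ± 0.05, BECN1, of the class III PI3 kinase complex, 0.47 ± 0.05, and WIPI1, which reads the lipid that this complex makes, 0.35 ± 0.07. In OPM2, where same-numbered libraries deviated together, WIPI1 was 0.27 ± 0.14 (adjusted p = 0.127) and was called with a replicate block within each line (0.28 ± 0.11, adjusted p = 0.0310). With that block it was also called in H929 (adjusted p = 0.0115) and MM1S (0.0486). ATG9A, the lipid scramblase of the early autophagosome, rose in H929 (0.51 ± 0.11) and MM1S (0.68 ± 0.13).

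ATG5 and UVRAG were lower on average. ATG5 (Entrez 9474, chromosome 6, 106184476 to 106325760), part of the complex that attaches ATG8 proteins to membrane, stood at 47.9, 46.1 and 48.6 CPM against 37.8, 38.1 and 38.9 in H929, at 73.4 and 66.2 against 55.1, 55.2 and 52.0 in MM1S, at 60.2, 61.9 and 58.6 against 56.0, 55.1 and 52.7 in OPM2, and at 46.0, 45.1 and 44.0 against 39.1, 39.2 and 37.7 in RPMI-8226. Every IRF4 guide library lay below every EV library of its line. The average change was -0.26 ± 0.04 (adjusted p = 5.31e-07), with -0.14 ± 0.07 in OPM2 (adjusted p = 0.115). The call in RPMI-8226 (-0.22 ± 0.07) ended without EV replicate 1 (0.0687) or 2 (0.0523) and with no filter on low counts (0.0908). UVRAG (Entrez 7405, chromosome 11, 75815210 to 76144232), a partner of BECN1, stood at 51.2 and 53.0 against 42.6, 38.6 and 40.7 CPM in MM1S, at 61.2, 72.6 and 69.4 against 52.7, 59.4 and 58.6 in OPM2, at 40.8, 36.8 and 46.9 against 36.5, 37.2 and 41.4 in H929, and at 55.6, 56.2 and 54.5 against 53.7, 57.2 and 56.7 in RPMI-8226. Groups were apart in MM1S and OPM2 and overlapped in H929 and RPMI-8226. The average change was -0.18 ± 0.05 (adjusted p = 0.00140). Its call in MM1S ended without EV replicate 3 (0.0758), and that in OPM2 without EV replicate 2 (0.126), EV replicate 3 (0.0729) or IRF4 guide replicate 1 (0.117), with no filter on low counts (0.10) and by limma on log2 RPKM (0.0757).

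Across the 51 genes, the change differed between lines for 32 (edgeR F test, adjusted p under 0.05), against 48.0% of all genes tested. H929 gave the highest change of the 4 lines for 27 of them, RPMI-8226 for 9, MM1S for 8 and OPM2 for 7. The 6 smallest p-values of the difference were those of CTSA, CTSB, LAMP1, RRAGD, CD63 and ULK1. In CTSA, CTSB, LAMP1, CD63 and ULK1 the change was highest in H929, and in RRAGD the fall was deepest in RPMI-8226.

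With the EV guide alone, the lines differed in the level of all 51 genes (edgeR F test), as did 93.1% of all genes tested. On the deposited log2 RPKM, which is per length, the median level of the 51 was 4.09, against 1.88 over the 16220 genes with such values. The median range over the lines was 1.29, against 1.69 over all genes, and 36 of the 51 (70.6%) had a range of at least 1, as did 73.6% of all genes. OPM2 was the lowest line for 24 of the 51, and RPMI-8226 the highest for 16. The widest ranges were those of CTSZ (9.48, from -3.38 in OPM2 to 6.10 in RPMI-8226), CTSL (8.79), CTSS (6.98), GRN (5.40, from 1.97 in OPM2 to 7.37 in RPMI-8226), GAA (5.16, from -0.29 in MM1S to 4.87 in H929), GABARAPL1 (4.23) and GALNS (3.84). The map of levels with the EV guide shows that 4 of these ranges, those of CTSZ, CTSL, CTSS and GRN, end in OPM2 at the low side.

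**Figure D5:**
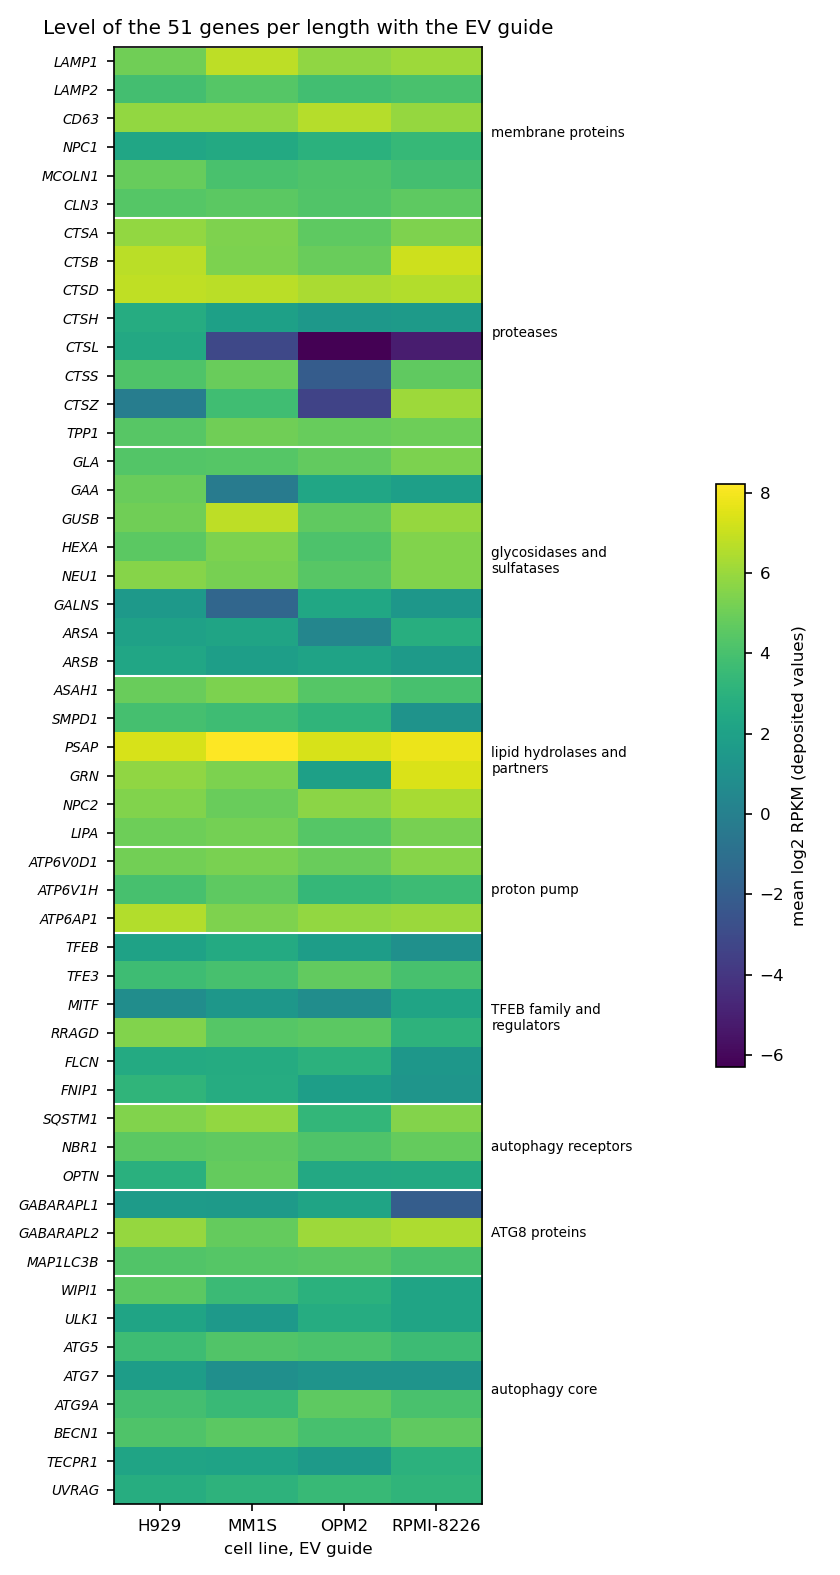
Mean deposited log2 RPKM of the 51 genes (rows, by class) with the EV guide in the 4 lines (columns); yellow is high and dark purple low. PSAP, CTSD and CTSB are among the brightest rows, and CTSL, CTSS and CTSZ hold the darkest cells, CTSL in OPM2 (-6.30) coming from libraries at 0 counts.

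Further genes of the same organelles and pathway, from 7 lists that hold none of the 51, were counted for context. Of the 146 tested, 82 were higher on average and 20 lower (median 0.20). Of all genes tested 32.6% were higher and 25.1% lower (median 0.11), and these shares stand beside each list that follows. Among further hydrolases 20 of 31 were higher and 3 lower. FUCA1, the lysosomal fucosidase, was at 23 ± 0.678 CPM with the EV guide and 179 ± 30.0 with the IRF4 guide in H929 (SD, n = 3 each), a change of 2.96 ± 0.12 (SE), and averaged 1.58 ± 0.06 (adjusted p = 1.17e-18). The serine carboxypeptidase SCPEP1 and the phospholipase PLA2G15 averaged 0.70 ± 0.04 and 0.93 ± 0.05. Among further membrane proteins 11 of 20 were higher and 3 lower. LAPTM5, a lysosomal membrane protein of blood cells, was at 0.453 ± 0.273 against 13.2 ± 0.957 CPM in H929 and at 0.496 ± 0.415 against 12.6 ± 2.24 in OPM2 (n = 3 each), but at 1568 ± 33.7 (n = 2) against 2963 ± 85.1 (n = 3) in MM1S. The channel TPCN1 rose in 3 lines and was -0.06 ± 0.08 in OPM2, and the transporter SIDT2 averaged 1.00 ± 0.06.

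Of 15 further pump subunits 8 were higher and 3 lower, with a median change of 0.10, close to that of all genes tested (0.11). ATP6V0E2 and ATP6V1D averaged 0.39 ± 0.05 and 0.42 ± 0.06, and ATP6V0A2 fell by 0.21 ± 0.04. Of 19 genes of sorting and fusion 12 were higher and 1 lower. SORL1, a sorting receptor, had 0 counts over the EV libraries of OPM2 and 54 with the IRF4 guide, at least 13.8-fold higher (with 3 counts over the group as the floor), and in H929 it was at 2.56 ± 0.823 against 62.4 ± 7.35 CPM (n = 3 each). The related SORT1 rose by 1.87 ± 0.10 in H929 and 1.04 ± 0.08 in OPM2, and was -0.08 ± 0.09 in MM1S and -0.19 ± 0.08 in RPMI-8226. VPS39, of the HOPS tethering complex, averaged 0.61 ± 0.04. Of 20 genes of mTORC1 and its lysosomal control 8 were higher and 4 lower (median 0.02), beside 32.6% and 25.1% of all genes tested. RHEB, the GTPase that switches mTORC1 on, fell by 0.31 ± 0.05 on average, TSC2, which switches RHEB off, rose by 0.42 ± 0.04, and NPRL2, of the GATOR1 complex, fell by 0.42 ± 0.05.

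Of 31 further autophagy genes 18 were higher and 5 lower (median 0.25), beside 32.6% and 25.1% of all genes tested. ATG2A, a lipid transfer protein, averaged 0.82 ± 0.05 and WIPI2, which recruits the ATG5 complex, 0.48 ± 0.04. ATG3, the enzyme that passes ATG8 proteins to lipid, fell in all 4 lines, from -0.66 ± 0.08 in H929 to -0.25 ± 0.08 in RPMI-8226 (average adjusted p = 1.14e-11). Of 10 further receptors 5 were higher and 1 lower: TAX1BP1 and the ferritin receptor NCOA4 averaged 0.32 ± 0.04 and 0.25 ± 0.04, and SEC62, a receptor for the endoplasmic reticulum, fell by 0.20 ± 0.04.

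Limma on the authors' log2 RPKM differs from the edgeR fit in scaling, test and genes tested (16220) at once. The median change over all genes was more than 0.1 lower there in H929 (0.10 with TMM, -0.07 on log2 RPKM), in OPM2 (0.03 and -0.08) and on average (0.11 and -0.03). The share of calls that were higher on average was 46.2% there, beside 56.5% with TMM and 57.1% where DESeq2's size factors alone replaced TMM. The 51 genes had a median of 0.45 on log2 RPKM, beside 0.47 with TMM, with 39 higher and 4 lower on both (90.7% of the calls higher).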

How the data were processed

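Raw counts per Entrez gene for 23 libraries, and log2 RPKM values for each library, were deposited by the authors. Subread, featureCounts and limma are named in the submitters' processing notes, on GRCh38 (hg38), without versions. Use of strand in the counting is not given in the sources used here. Overlapping genes and close copies carry that uncertainty. The deposited log2 RPKM appear scaled between libraries, which can move the levels and shares taken from them.

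The raw counts went through edgeR 4.0.16 (R 4.3.3): filterByExpr by group (minimum count 10), TMM scaling (factors 0.914 to 1.08), and a single robust quasi-likelihood fit with a mean per group. Contrasts were the IRF4 guide over the EV guide in each line, their average with equal weights, the difference between lines and the EV level between lines. Benjamini-Hochberg adjustment ran over the 16468 genes tested, and genes were called under 0.05. The SE is the size of the log2 fold change over the square root of F. Rows without a symbol, 490 in number, stayed in the fit. In OPM2 all 3 same-numbered pairs of libraries deviated together (r of deviations 0.144 to 0.183, each over 0.1), so its numbers were taken to pair them, from the data alone. The main fit did not use that pairing, and values for OPM2 come from it unless a replicate block or another setting is named. Pearson r between libraries of a group was 0.988 to 0.995 across genes.

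On simulated counts the average contrast called 74.5% of genes changed by 1 log2 unit and 58.7% of those changed by 0.5. The contrasts of single lines called 60.6% to 70.2% and 9.78% to 16.3% (15636 genes). Only 200 genes were changed there, with the same spread set for every gene, and far more genes were called in the data. These shares therefore do not give the power in the data. A missing call in 1 line does not show that a gene was unchanged. Alternatives used DESeq2 1.42.0, limma 3.58.1 on log2 RPKM, no filter, each line alone, a replicate block, and leaving out each library. Genes given with full values were the 9 with the smallest p on average, 6 of the difference, 4 of the EV level, those lower on average, any with a group at 0 counts, and TFEB, TFE3, MITF, SQSTM1 and LAMP1. In the further lists up to 3 called genes each were named. The members and lists were chosen with earlier results of these data known.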

Additional observations from a re-analysis of the deposited data

Results flagged for a closer look

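For 32 of the 51 genes the change with the IRF4 guide differed between the 4 lines by the F test of the difference itself (edgeR, 3 degrees of freedom, adjusted over all genes tested). Of all genes tested 48.0% did so. Each value here is that adjusted p. Of the membrane proteins these were LAMP1 (3.60e-10), LAMP2 (5.64e-06), CD63 (5.22e-08) and CLN3 (1.95e-04). Of the proteases they were CTSA (7.14e-14), CTSB (8.32e-11), CTSD (0.00965), CTSS (1.51e-04), CTSZ (0.00315) and TPP1 (3.79e-04). The glycosidases and sulfatases were GLA (5.20e-06), GUSB (3.35e-06), HEXA (0.0427), GALNS (0.00891) and ARSA (1.95e-07). In the lipid class they were SMPD1 (4.88e-04), PSAP (0.0195) and LIPA (9.05e-08). The pump subunits were ATP6V1H (0.00214) and ATP6AP1 (9.38e-05). In the TFEB family and its regulators they were TFE3 (1.88e-05), MITF (0.00162) and RRAGD (1.87e-08). The receptors were SQSTM1 (0.00212) and NBR1 (0.00608). The ATG8 proteins were GABARAPL1 (0.00717), GABARAPL2 (0.00221) and MAP1LC3B (3.02e-06). In the autophagy core they were ULK1 (8.04e-08), ATG9A (0.00675), BECN1 (2.45e-04) and TECPR1 (0.00484). H929 had the highest change in 27 of all 51 genes, which was not counted over all genes tested. Calls in opposite directions were made for CTSB, GUSB, LIPA and MITF. Called higher in all 4 lines were CTSD, CTSS, CTSZ, TPP1, HEXA, ARSA, SMPD1, PSAP and TFE3. So were SQSTM1, NBR1, GABARAPL1, MAP1LC3B, ULK1 and TECPR1, and for all of these genes the difference is one of size. The IRF4 transcript itself fell by different amounts (difference between lines, adjusted p = 0.0317), and its part in these differences was not tested.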

How the results depend on the processing

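Over 30 alternatives, 154 of the 191 calls of the 51 genes in the lines and on average were kept in all, 37 were lost in at least 1 (31 by leaving out a library), and 0 turned round. The counts of genes higher and lower and of differences moved by at most 1.5 times except the following. Members lower in OPM2 went from 4 to 2 without the filter on low counts, and members lower in H929 from 2 to 4 with each line fitted alone. The cause was not tested. Leaving out 1 library gave 2 to 4 lower in OPM2, 2 to 4 in RPMI-8226, 3 to 4 in MM1S and 4 to 5 on average. It gave 37 to 39 higher in H929, 26 to 36 in MM1S, 31 to 34 in OPM2, 22 to 30 in RPMI-8226 and 38 to 40 on average, and 30 to 35 differences between lines. With MM1S EV at 1 library, that library was assumed to vary like the other groups.

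Outside OPM2 some same-numbered pairs correlated at under 0.1 (lowest 0.0756 in H929, 0.0256 in MM1S and 0.0923 in RPMI-8226), though every one was positive. The numbers were therefore not taken to pair samples there, and the labels do not say whether they do. A replicate block shared by the lines gave 40 higher and 4 lower on average, 39 and 2 in H929, 37 and 4 in MM1S, 35 and 4 in OPM2 and 30 and 4 in RPMI-8226. A block within each line gave 40 and 4, 39 and 3, 35 and 4, 35 and 4, and 31 and 4. Either block added 8 calls and ended none of the 191, and gave 24 genes higher in all 4 lines. In OPM2 the added call was that of WIPI1, and the blocks changed no other call there. Among the other added calls, both blocks gave WIPI1 in H929 and MM1S, OPTN in MM1S, CTSA in RPMI-8226 and NPC1 on average. In H929, OPM2 and RPMI-8226 each library correlated best with its own number, a hint from the data and not from the design. Depth limits CTSL outside H929, CTSZ in OPM2 and GABARAPL1 in RPMI-8226, which rest on few counts.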
